A study of Homo sapiens with 6 samples.

Results

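Potassium channel genes were examined on 6 arrays of 3 established human uveal melanoma lines called Mel 290, Mel 270 and 92.1. Members were all genes whose single symbol in the array annotation began with KCN. This gave 91 probe sets for 87 genes, out of 18417 genes with a probe set of 1 symbol. Of the 87, 2 are non-coding genes with a KCN symbol, KCNQ1DN and KCNJ5-AS1. Where a gene had several probe sets (KCNG1 and KCNMB3), it was represented by the probe set chosen by its mean log2 signal across all arrays, the highest being taken. The group as a whole was taken up with the falls of KCNAB2 and KCNH1 in co-culture already known, so these falls are a description here and not independent evidence. Another 3 probe sets carried a KCN symbol together with other symbols and were not used here.

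Each line was measured once grown alone and once below activated T cells, which makes 1 array per line and condition and 3 lines per group. Mel 290 was confluent and the other lines were not yet so when the medium was changed, so that line and density cannot be told apart. All cultures were kept for 64 h in a serum-free medium. In the co-culture group, 1500000 T cells from healthy volunteers, activated with beads against CD3 and CD28, sat in inserts with pores of 0.4 µm above the melanoma cells. Soluble factors could pass through these pores, and the melanoma cells were scraped off for RNA. No line had a repeat culture, so every value of a line in a condition rests on 1 array. The p-values for co-culture measure how unequally the 3 lines changed and not the spread of repeat cultures. The test used also draws on the spread of all tested genes. In RNA from whole cultures, fewer cells that express a gene and less RNA per cell cannot be told apart.

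Potassium channels let potassium leave the cell and so set the resting membrane potential, which in turn governs calcium entry, cell volume and progress through the cell cycle. Their pores are built from voltage-gated subunits, from subunits gated by calcium or sodium, from inward rectifiers or from tandem-pore leak subunits. Silent modifier subunits and auxiliary subunits change how a pore opens or reaches the membrane. In pigment cells and melanomas, voltage-gated and calcium-gated potassium channels are known for ties to proliferation and migration.

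The lines were checked against markers of their labelled type. The melanocyte genes PMEL, MLANA, TYR and TYRP1 lay between 10.96 and 13.19 in log2 signal in 92.1 and Mel 270 grown alone, but between 4.79 and 6.10 in Mel 290. Of the 9 melanocyte markers with a probe set, 8 were above the filter used here in 92.1 grown alone, 9 in Mel 270 and 5 in Mel 290. Those in Mel 290 included the regulators MITF (8.96) and SOX10 (6.84), each lower than in the other lines, and SLC45A2 (6.66), which was at 6.56 in Mel 270. The keratin gene KRT8 had a log2 signal of 10.17 in Mel 290 against 6.39 in 92.1 and 6.71 in Mel 270, all grown alone. Of the other epithelial markers, KRT18 was at 9.53 in Mel 290 against 8.09 and 7.96, KRT19 lay between 6.33 and 6.55 in the 3 lines, and EPCAM and CDH1 lay between 4.84 and 5.51. The T cell genes CD3D, CD3E and CD3G lay between 4.46 and 5.62 on the arrays grown alone and between 4.63 and 5.70 in co-culture. These CD3 values lie below the filter on low values, a log2 signal of 5.80, which was the 25th percentile of the mean signal over annotated probe sets. Of 13 T cell markers, 5 reached the filter, with the highest signals for CD7 (8.12 to 8.50 over the 6 arrays) and GZMB (6.25 to 7.18), and none passed the test in co-culture. The mean signal of the 13 lay between 5.61 and 5.82 on the arrays grown alone and between 5.58 and 5.84 in co-culture.

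Most potassium channel genes had a low signal that differed little over the 6 arrays. Of the 87 genes, 53 had a mean signal at or above the filter and were tested, while 34 lay below it. The members just inside were KCNK1 (mean log2 signal 5.81), KCNMB3 (5.82) and KCNE1 (5.85), and those just outside were KCNK18 (5.74), KCNA4 (5.73) and KCNK5 (5.72). For 25 genes the signal was below 5.80 on each of the 6 arrays. Only 11 of the 53 reached the 50th percentile of mean signal, 7.11, against 9241 of all 13808 tested genes. The highest and lowest of the 6 arrays lay less than 1 log2 unit apart for 42 of the 53 tested members (79.2%). Among all 13808 tested genes this share was 54.6%. Below the filter it was 29 of the 34 members (85.3%), against 83.01% of all genes there. Small ranges were thus common at low signal, and tested members had lower signals than all tested genes. Steady expression and weak signal therefore cannot be told apart here.

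**Figure D1:**
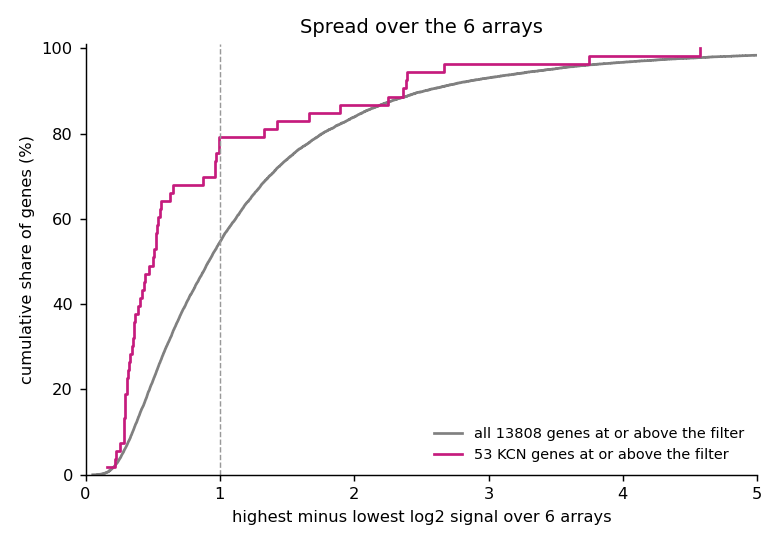
Cumulative share of genes (%) by the difference between the highest and the lowest log2 signal over the 6 arrays, for the 53 KCN genes (pink) and all 13808 genes (grey) at or above the filter. The dashed line marks 1 log2 unit: 79.2% of the KCN genes and 54.6% of all genes lie to its left.

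The other 11 tested members, whose arrays lay at least 2-fold apart, carry nearly all that follows: KCNAB2, KCNH1, KCNQ5, KCND1, KCNJ2, KCNJ8, KCNK1, KCNK2, KCNMA1, KCNN3 and KCNN4. They include genes of every class of pore and an auxiliary subunit, but no silent modifier. Ranges over the 6 arrays were under 1 log2 unit for the 7 Shaker-type KCNA members, the 5 KCNE genes and the 4 KCNMB genes. Their largest ranges were 0.50, 0.57 and 0.65. KCNA2 was not among the members. In each of these families 3 genes reached the filter, and the rest lay below it, where small ranges were common.

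Promoter sequences of 4 members are shown. Of these, 2 were called lower in co-culture (KCNAB2 and KCNH1), 1 had the largest positive mean difference there (KCNJ2) and 1 differed most between lines (KCNMA1). Each window is the 250 bases before a RefSeq start in GRCh38.p14, read 5′ to 3′ on the gene's strand, and capitals mark matches to the motifs searched. For KCNAB2, the most upstream of 4 listed starts is shown, chr1:5992426-5992675 on the plus strand. For KCNH1 the single listed start is shown, chr1:211134149-211134398 on the minus strand, and for KCNJ2 chr17:70169282-70169531 on the plus strand. KCNMA1 has a listed outer start, chr10:77637809-77638058, and an inner one, chr10:77350762-77351011, both on the minus strand. The arrays do not show which start was in use.
KCNAB2: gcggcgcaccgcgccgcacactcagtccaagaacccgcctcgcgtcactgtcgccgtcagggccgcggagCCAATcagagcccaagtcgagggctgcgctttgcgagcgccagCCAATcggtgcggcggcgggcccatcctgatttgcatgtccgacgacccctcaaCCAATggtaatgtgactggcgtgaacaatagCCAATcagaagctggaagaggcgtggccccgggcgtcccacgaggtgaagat
KCNH1: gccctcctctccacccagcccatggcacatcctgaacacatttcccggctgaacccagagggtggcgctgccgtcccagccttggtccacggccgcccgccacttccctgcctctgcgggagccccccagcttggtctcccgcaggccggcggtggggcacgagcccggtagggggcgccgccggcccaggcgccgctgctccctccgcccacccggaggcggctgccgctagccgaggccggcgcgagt
KCNJ2: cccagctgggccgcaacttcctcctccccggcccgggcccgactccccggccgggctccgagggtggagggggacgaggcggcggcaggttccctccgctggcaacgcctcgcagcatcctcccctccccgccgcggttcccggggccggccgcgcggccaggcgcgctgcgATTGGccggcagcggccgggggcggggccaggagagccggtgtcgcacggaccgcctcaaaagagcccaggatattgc
KCNMA1 outer: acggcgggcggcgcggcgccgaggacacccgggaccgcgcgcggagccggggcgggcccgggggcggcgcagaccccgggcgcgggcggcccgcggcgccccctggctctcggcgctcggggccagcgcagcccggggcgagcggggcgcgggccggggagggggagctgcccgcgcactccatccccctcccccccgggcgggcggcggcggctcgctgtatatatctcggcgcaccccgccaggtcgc
KCNMA1 inner: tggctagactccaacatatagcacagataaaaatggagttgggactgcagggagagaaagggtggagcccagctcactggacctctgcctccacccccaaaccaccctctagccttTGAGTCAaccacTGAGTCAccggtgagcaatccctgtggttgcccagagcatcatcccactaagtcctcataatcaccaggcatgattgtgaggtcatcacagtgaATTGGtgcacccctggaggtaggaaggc

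Motifs were searched on both strands and no matches overlapped in these windows. The letters were TTCNNNGAA for the STAT-type GAS element, GAAA, 2 bases of any kind and GAAA again for the interferon-stimulated response element, TGANTCA for AP-1, CATGTG for the M-box bound by MITF, CACGTG for the E-box and CCAAT for the CCAAT box. The KCNAB2 window held 4 CCAAT boxes. At least 4 of them occurred in 0.877% of all 34788 windows of this length, and at least 1 occurred in 32.0%. The cut-off of 4 was taken from the KCNAB2 window itself, so nothing is read from that share. The windows of the other 3 KCNAB2 starts held no CCAAT box, 1 of them held an E-box, and they had 16, 8 and 10 CG pairs. The KCNH1 window held none of the 6 motifs and the KCNJ2 window held 1 CCAAT box. The inner KCNMA1 window held 2 AP-1 matches and 1 CCAAT box and had a single CG pair, whereas the outer one held no motif and 46 CG pairs. The KCNAB2 window shown had 27 CG pairs, the KCNH1 window 25 and the KCNJ2 window 32. The median was 11 over all windows and 14 over the windows of the members. These genes were picked by their values, so nothing is read from their motifs or CG counts. RefSeq windows were at hand for 69 of the 87 genes, 107 windows in all. Of these, 0.935% held a GAS element, against 6.57% of all windows, and 0.935% held an interferon-stimulated response element, against 3.02%. AP-1 stood in 8.41% against 6.59%, the M-box in 8.41% against 9.44%, the E-box in 6.54% against 6.31% and the CCAAT box in 30.8% against 32.0%. A gene can have several windows, so these shares are a description of letters only.

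The first comparison asked how co-culture with activated T cells changed expression of these channels. Both KCNAB2 and KCNH1 fell in all 3 lines and no member rose past the threshold in limma, an adjusted p of 0.05 over all 13808 tested genes. Thus 2 of 53 tested members were called lower and 0 higher, where 0.0362% of all tested genes were called lower and 0.413% higher. The rule's group was taken up because of these falls, so nothing is read from that share. At an unadjusted p under 0.05, limma gave 6 members lower (11.3%, against 13.0% of all tested genes) and 1 higher (1.89%, against 7.02%). In all 3 lines, 9 members were lower in co-culture (17%, against 25.5% of all tested genes) and 4 were higher (7.55%, against 16.2%). KCNAB2 and KCNH1 are among the 9, so nothing is read from these shares. The median change of the 53 members, co-culture minus alone over the 3 lines, was -0.029 on the log2 scale, and that of all tested genes was -0.041. By line, the median of the members was -0.11 in 92.1, -0.14 in Mel 270 and 0.16 in Mel 290, beside -0.081, -0.064 and 0.0067 over all tested genes.

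Among the auxiliary subunits, KCNAB2 encodes a cytoplasmic beta subunit of Shaker-type channels that has the fold of an aldo-keto reductase. Its log2 signal grown alone was 10.29 in 92.1, 10.88 in Mel 270 and 9.94 in Mel 290, and in co-culture it was 8.83, 8.82 and 8.50. Every co-culture array lay below every array grown alone, and the lines came to lie within a narrower span in co-culture. The mean change was -1.65 ± 0.35 (SD, n = 3 lines; SE 0.17 in limma), so the gene fell to a level 3.15-fold lower (limma adjusted p = 0.0465, lower in 3 of 3 lines). Its relatives KCNAB1 and KCNAB3 lay below the filter, with ranges under 1 log2 unit. The 7 Shaker-type KCNA genes among the members had mean changes between -0.059 and 0.16, and 3 of them were tested.

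KCNH1 encodes the pore of the ether-à-go-go channel, a voltage-gated channel found outside the brain in many tumours. Its log2 signal grown alone was 6.89 in 92.1, 6.59 in Mel 270 and 6.28 in Mel 290, and in co-culture it was 5.35, 5.39 and 4.99. The groups did not overlap, and all 3 co-culture arrays lay below the filter, so the size of the fall is imprecise. KCNH1 passed the filter only through the arrays grown alone, so the lack of overlap and the call below are a description and no support for the fall. Without a filter its limma adjusted p was 0.0477. The mean change was -1.34 ± 0.17 (SD, n = 3 lines; SE 0.13), or 2.54-fold lower (limma adjusted p = 0.0423, lower in 3 of 3 lines). Of the other 7 KCNH genes, KCNH2, KCNH3, KCNH4 and KCNH6 were tested and none passed, and each of the 7 had a range under 1 log2 unit.

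Both calls sit close to the threshold. Without 92.1 neither was called (KCNAB2 adjusted p = 0.106, KCNH1 0.135), nor without Mel 290 (0.0912 for each), and without Mel 270 only KCNAB2 was (0.0453, with KCNH1 at 0.0556). Both were also lost after cyclic loess (0.0766 and 0.0648), with low values raised to the filter level (0.0534 and 0.102, where the change of KCNH1 was -0.79) and without the cell line as replicate block (0.251 and 0.246), and KCNAB2 without a filter (0.0527).

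**Figure D2:**
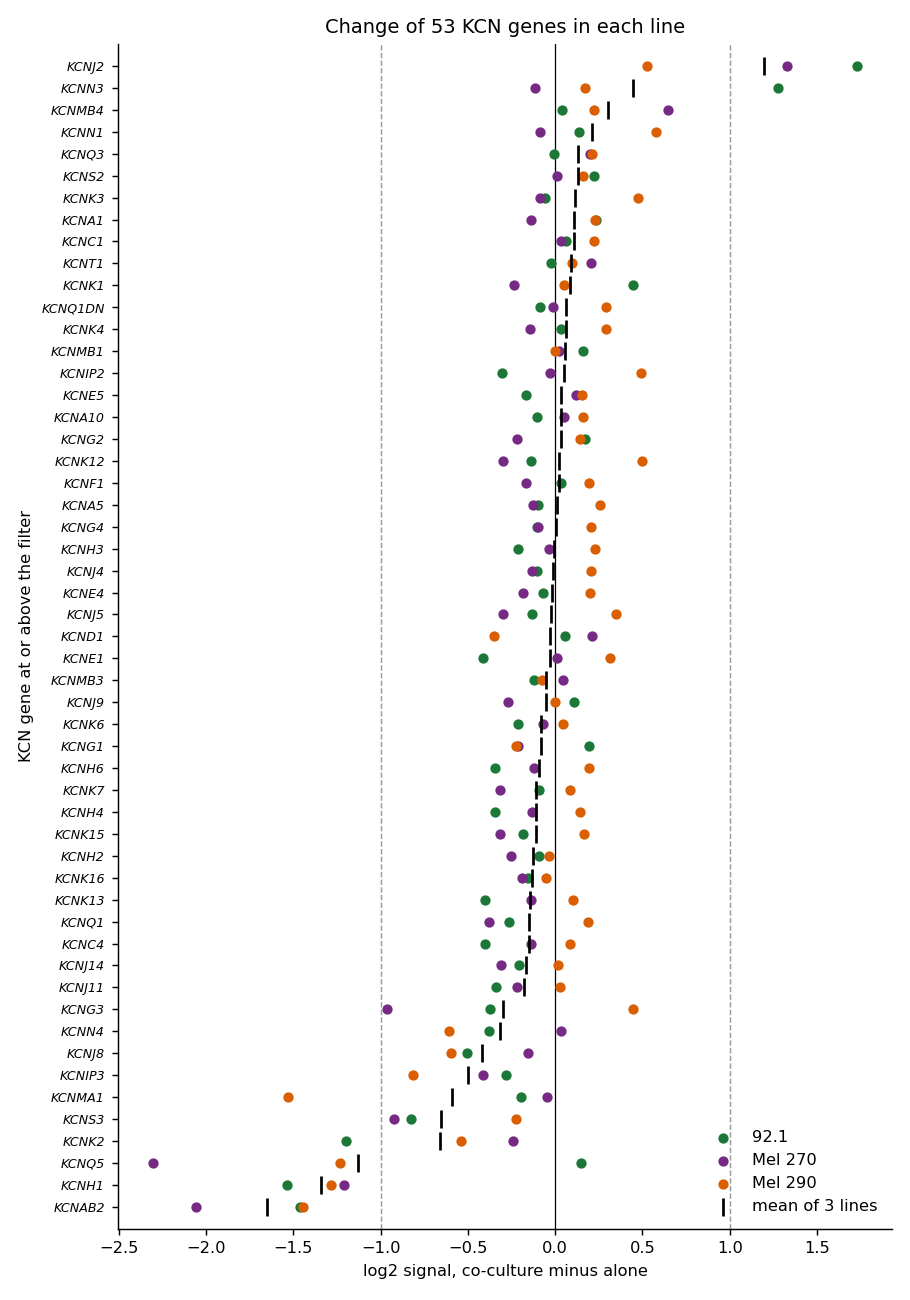
Log2 signal in co-culture minus alone for each of the 53 KCN genes at or above the filter, 1 point per line (green 92.1, purple Mel 270, orange Mel 290), with a black bar at the mean of the 3 lines. Dashed lines mark a 2-fold difference. KCNAB2 and KCNH1 lie past the lower line in all 3 lines, KCNQ5 in 2 of them, and most genes lie near 0.

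Groups did not overlap, with co-culture lower, for 4 tested members (7.55%, against 5.96% of all tested genes), and with co-culture higher for 2 (3.77%, against 4.03%). Of the 4, KCNH1 passed the filter only through the arrays grown alone, so nothing is read from their share. Besides KCNAB2 and KCNH1, the lower ones were KCNS3, a silent subunit that modifies delayed rectifier channels, and KCNIP3, a calcium-binding protein that joins A-type channels. KCNS3 had log2 signals of 7.78, 7.92 and 7.94 in 92.1, Mel 270 and Mel 290 grown alone and of 6.95, 6.996 and 7.72 in co-culture. Its difference of -0.66 ± 0.38 (SD, n = 3 lines) did not pass in limma (adjusted p = 0.146). KCNIP3 had 8.77, 9.01 and 8.85 alone and 8.49, 8.60 and 8.04 in co-culture, a difference of -0.50 ± 0.28 (limma adjusted p = 0.175). The higher ones, KCNC1 (0.11) and KCNS2 (0.13), differed little in log2 signal.

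The inward rectifier gene KCNJ2 encodes a strong rectifier that holds the resting potential close to that of potassium. Its log2 signal was 6.23 in 92.1, 6.83 in Mel 270 and 5.49 in Mel 290 grown alone, and 7.95, 8.16 and 6.02 in co-culture. Each line was higher in co-culture, but Mel 290 in co-culture stayed below the other lines grown alone, so the groups overlapped. The difference of 1.19 ± 0.61 (SD, n = 3 lines; 2.29-fold) did not pass in limma (adjusted p = 0.102), and over the alternatives its adjusted p lay between 0.0863 and 0.999. It was the largest positive mean difference among the 53 members.

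Other members differed in single lines, where there is 1 array per condition and hence no test. At least 2-fold lower in co-culture were 3 members in 92.1 (5.66%, against 2.71% of all tested genes), 3 in Mel 270 (5.66%, against 4.52%) and 4 in Mel 290 (7.55%, against 2.30%). At least 2-fold higher were 2 in 92.1 (3.77%, against 3.63%), 1 in Mel 270 (1.89%, against 5.29%) and 0 in Mel 290 (against 2.07%). Each lower count holds KCNAB2 and KCNH1, whose falls were already known, so nothing is read from the lower shares. Over the 3 lines these were 7 members (13.2%, against 14.7% of all tested genes): KCNAB2, KCNH1, KCNJ2, KCNQ5, KCNK2, KCNN3 and KCNMA1.

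KCNQ5 encodes a voltage-gated subunit of the M-type current, which steadies the membrane potential. In 92.1 its log2 signal was 9.82 alone and 9.97 in co-culture. In Mel 270 it went from 8.53 to 6.22, a difference of -2.31 (4.94-fold lower), and in Mel 290 from 7.78 to 6.55, a difference of -1.24 (2.35-fold lower). The mean of -1.13 ± 1.23 (SD, n = 3 lines) did not pass (limma adjusted p = 0.266), nor did the change of -1.77 without 92.1 (limma adjusted p = 0.163). Its family members KCNQ1 and KCNQ3 had mean changes of -0.15 and 0.13.

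KCNK2 encodes a tandem-pore leak channel opened by membrane stretch, and its log2 signal in 92.1 was 7.85 alone and 6.65 in co-culture, a difference of -1.20. It was 8.29 and 8.05 in Mel 270 and 6.58 and 6.04 in Mel 290, so each line was lower but only 92.1 by 2-fold (mean -0.66 ± 0.49, limma adjusted p = 0.188). KCNN3 encodes a small-conductance channel opened by calcium. Its log2 signal in 92.1 was 6.32 alone and 7.60 in co-culture, a difference of 1.28, against 6.42 and 6.30 in Mel 270 and 5.94 and 6.11 in Mel 290. The mean difference of KCNN3 was 0.44 ± 0.74 (limma adjusted p = 0.479).

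KCNMA1 encodes the pore of the large-conductance channel opened by calcium and voltage together. It had a signal above the filter in Mel 290 alone, where it was 9.71 grown alone and 8.18 in co-culture, a difference of -1.53 (2.89-fold lower). In 92.1 (5.33 and 5.14) and Mel 270 (5.36 and 5.31) all 4 arrays lay below the filter. The mean change over the 3 lines was -0.59 ± 0.82 (limma adjusted p = 0.387). None of its auxiliary KCNMB genes passed, and KCNMB4, the largest difference among them, was 0.30 ± 0.31 apart.

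Of the 34 members below the filter, 2 were at least 2-fold apart in a line and 0 were 4-fold apart. These were the A-type pore gene KCND3, with log2 signals of 6.80 alone and 5.59 in co-culture in 92.1, and the G protein-gated rectifier gene KCNJ6, with 6.22 and 5.06 in Mel 290. With values under the filter raised to it, these gaps were 1.997-fold and 1.34-fold, so neither reached 2-fold. In the other lines both lay below 5.80 on every array. KCNA3, the voltage-gated channel known from T cells, lay between 4.46 and 4.74 on all 6 arrays.

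By structural class, the 14 tested voltage-gated pore subunits held 1 called gene, KCNH1, and had a median change of -0.060. The 9 auxiliary subunits held 1, KCNAB2, and had a median of -0.018. Both falls were already known, and 0.0362% of all tested genes were called lower, so nothing is read from the classes of these calls. No gene was called among 10 tandem-pore channels (median -0.094), 7 inward rectifiers (-0.055), 7 modifiers (0.0020) and 5 calcium- or sodium-gated pores (0.091). These medians stand beside the median of -0.041 over all tested genes. The 1 tested non-coding gene, KCNQ1DN, changed by 0.064.

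**Figure D3:**
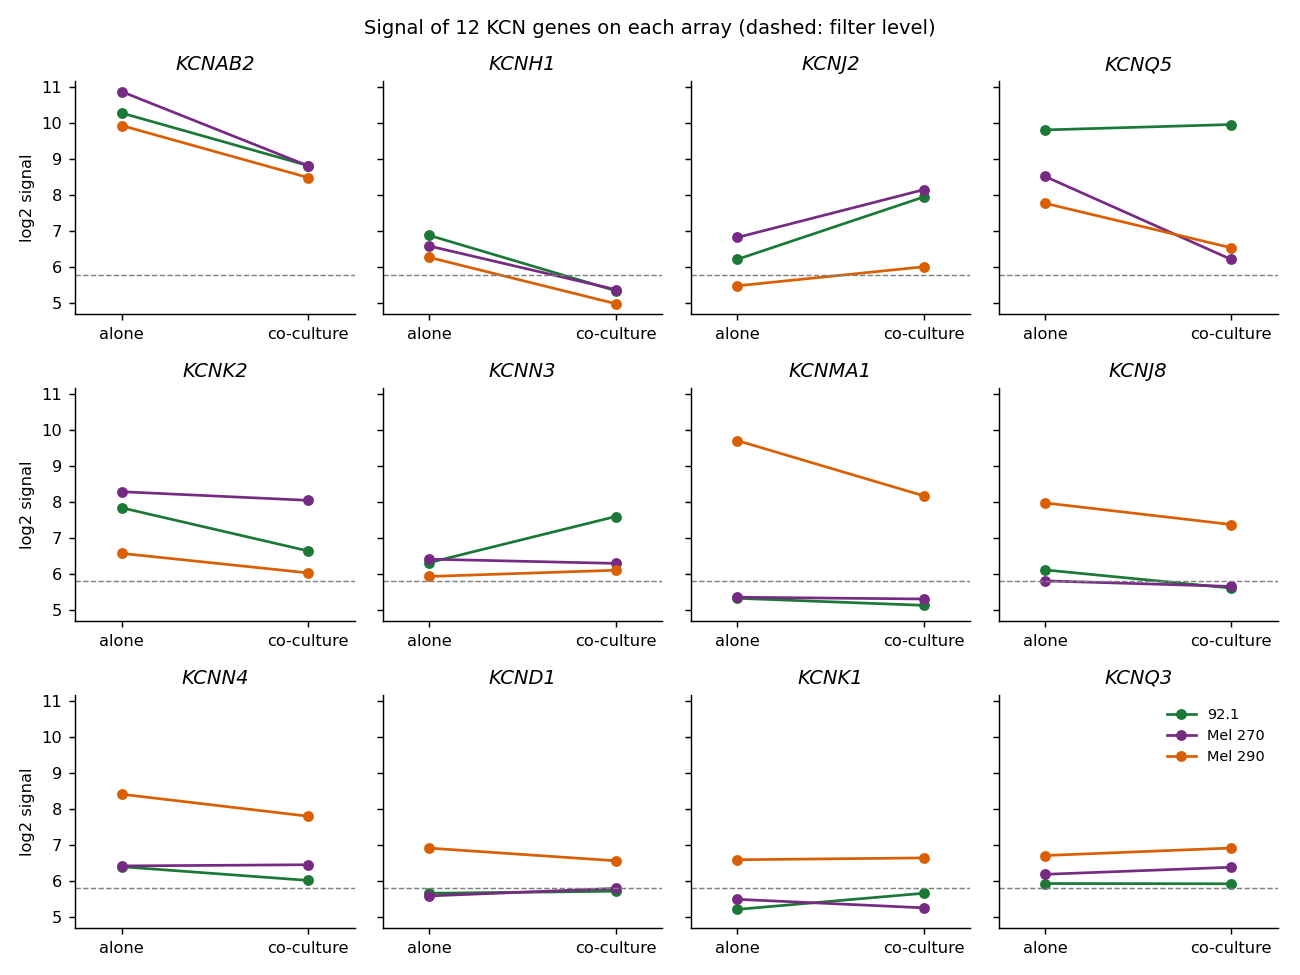
Log2 signal of 12 KCN genes on each of the 6 arrays, with a line joining the 2 arrays of each cell line (green 92.1, purple Mel 270, orange Mel 290), and the filter level of 5.80 dashed. KCNAB2 and KCNH1 slope down in all 3 lines and KCNJ2 slopes up, whereas Mel 290 stands above the other lines for KCNMA1, KCNJ8, KCNN4, KCND1 and KCNK1.

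The second comparison set the lines grown alone against each other. At least 2-fold apart between 1 or more pairs of lines were 8 of the 53 members (15.1%), against 26.7% of all tested genes. KCNQ5 alone separated 92.1 from Mel 270, with 92.1 higher by 1.29 on the log2 scale. In this pair 1.89% of members were at least 2-fold higher in 92.1, against 6.18% of all tested genes, and 0 were lower, against 3.58%. Mel 290 stood apart from each of the others with 7 members. Against 92.1, 5 were at least 2-fold higher in Mel 290 (9.43%, against 7.92%) and 2 lower (3.77%, against 10.2%), and against Mel 270, 5 were higher (9.43%, against 8.89%) and 2 lower (3.77%, against 8.86%). Among the 5 in each pair are KCNMA1, KCND1 and KCNK1, which lay below the filter on all 4 arrays of the other lines. They were tested only because Mel 290 was high, and they are also among the 8 members above. Nothing is therefore read from the shares against Mel 290 or from that of the 8. After KCNQ5, the gaps between 92.1 and Mel 270 were all under 1 log2 unit, among them KCNN1, a small-conductance calcium-gated channel gene (-0.49).

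The same counts in co-culture had other members in part. Between 92.1 and Mel 270, 2 members were at least 2-fold higher in 92.1 (3.77%, against 7.54%), KCNQ5 and KCNN3, and 1 lower (1.89%, against 5.82%), KCNK2. Between 92.1 and Mel 290, 3 were higher in 92.1 (5.66%, against 11.8%), KCNQ5, KCNJ2 and KCNN3, and 3 lower (5.66%, against 7.23%), KCNMA1, KCNN4 and KCNJ8. Between Mel 270 and Mel 290, 2 were higher in Mel 270 (3.77%, against 11.3%), KCNJ2 and KCNK2, and 4 lower (7.55%, against 8.16%), KCNMA1, KCNJ8, KCNK1 and KCNN4. Of those lower than in Mel 290, KCNMA1 and KCNK1 passed the filter only through Mel 290. Their line difference was fixed by the filter, so nothing is read from the shares against Mel 290.

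In limma, each line was also set against the mean of the other lines, over both its arrays. These contrasts share all arrays and add up to 0, so they are not independent of each other, and their errors hold the unequal responses to co-culture rather than repeat cultures. Mel 290 had 6 members higher (11.3%, against 11.3% of all tested genes) and 2 lower (3.77%, against 14.9%). Of these 6, KCNMA1, KCND1 and KCNK1 passed the filter only through Mel 290, so their line difference was fixed by the filter and nothing is read from the share. In 92.1, 1 was higher (1.89%, against 9.73%) and 4 were lower (7.55%, against 6.18%), and in Mel 270, 1 was higher (1.89%, against 6.83%) and 2 were lower (3.77%, against 7.62%). In all, 9 members were called in at least 1 of these contrasts (17.0%, against 33.9% of all tested genes). KCNMA1 is among those lower in 92.1 and in Mel 270, and KCNMA1, KCND1 and KCNK1 are among the 9. Nothing is therefore read from these shares either.

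The members higher in Mel 290 were led by KCNMA1. Grown alone its log2 signal was 9.71 in Mel 290 against 5.33 in 92.1 and 5.36 in Mel 270, and in co-culture 8.18 against 5.14 and 5.31. With the low values raised to the filter level it was still 15.0-fold higher than the mean of the others alone and 5.20-fold higher in co-culture. Over both arrays Mel 290 was higher by 3.66 on the log2 scale (SE 0.34, limma adjusted p = 0.0033). KCNMA1 passed the filter only through Mel 290, so that a difference between lines was fixed by the filter.

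KCNJ8 encodes the pore of an ATP-sensitive channel, closed when ATP is plentiful. Its log2 signal was 7.98 in Mel 290 alone against 6.12 in 92.1 and 5.82 in Mel 270, and 7.38 against 5.62 and 5.66 in co-culture. Mel 290 was higher by 1.88 (SE 0.16, limma adjusted p = 0.0026). ABCC9, which encodes the sulfonylurea receptor that completes this channel, lay below the filter on average and had 4.90 in Mel 290 alone and 6.58 in co-culture, against 3.79 and 3.96 in 92.1 and 3.96 and 3.85 in Mel 270. Thus its only value above the filter was that of Mel 290 in co-culture.

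KCNN4 encodes the intermediate-conductance channel opened by calcium, which drives calcium entry in T cells and is also found in tumours. Its log2 signal was 8.41 in Mel 290 alone against 6.40 in 92.1 and 6.42 in Mel 270, and 7.80 against 6.02 and 6.45 in co-culture. Mel 290 was higher by 1.78 (SE 0.18, limma adjusted p = 0.0039).

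The other members higher in Mel 290 had small differences near the filter level. These were KCND1, an A-type pore gene (1.05, limma adjusted p = 0.0130), KCNK1, a tandem-pore gene (1.21, limma adjusted p = 0.0111), and KCNQ3, an M-type subunit (0.71, limma adjusted p = 0.0203). KCNK1 had log2 signals of 6.59 and 6.64 in Mel 290, alone and in co-culture, and lay below 5.80 on the 4 other arrays. KCND1 had 6.91 and 6.56 in Mel 290 and was likewise below 5.80 elsewhere, so both passed the filter only through Mel 290. Lower in Mel 290 were KCNJ2 by -1.54 (SE 0.27, limma adjusted p = 0.0157) and KCNK2 by -1.40 (SE 0.23, limma adjusted p = 0.0132). Part of the KCNJ2 contrast lay in co-culture, where Mel 290 differed from the mean of the others by -2.04, against -1.04 alone.

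Melanocyte markers also differed between the lines, with the lowest mean in Mel 290. The mean log2 signal of the 9 melanocyte markers with a probe set was 10.47 in 92.1, 10.79 in Mel 270 and 6.01 in Mel 290 grown alone, and 9.71, 9.49 and 5.79 in co-culture. Their part in the differences of potassium channel genes was not tested.

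KCNQ5 was the member higher in 92.1. Its log2 signal was 9.82 in 92.1 alone against 8.53 in Mel 270 and 7.78 in Mel 290, and the gap widened in co-culture, with 9.97 against 6.22 and 6.55. Set against the mean of the others, 92.1 was higher by 1.66 alone and by 3.58 in co-culture, and by 2.62 over both (SE 0.49, limma adjusted p = 0.0296). In Mel 270, KCNK2 was higher, with 8.29 alone against 7.85 in 92.1 and 6.58 in Mel 290, and 8.05 against 6.65 and 6.04 in co-culture (1.39 over both, SE 0.23, limma adjusted p = 0.0236). The members called lower in 92.1 were KCNMA1, KCNN4, KCNJ8 and KCNQ3, and those in Mel 270 were KCNMA1 and KCNJ8, all of them higher in Mel 290.

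**Figure D4:**
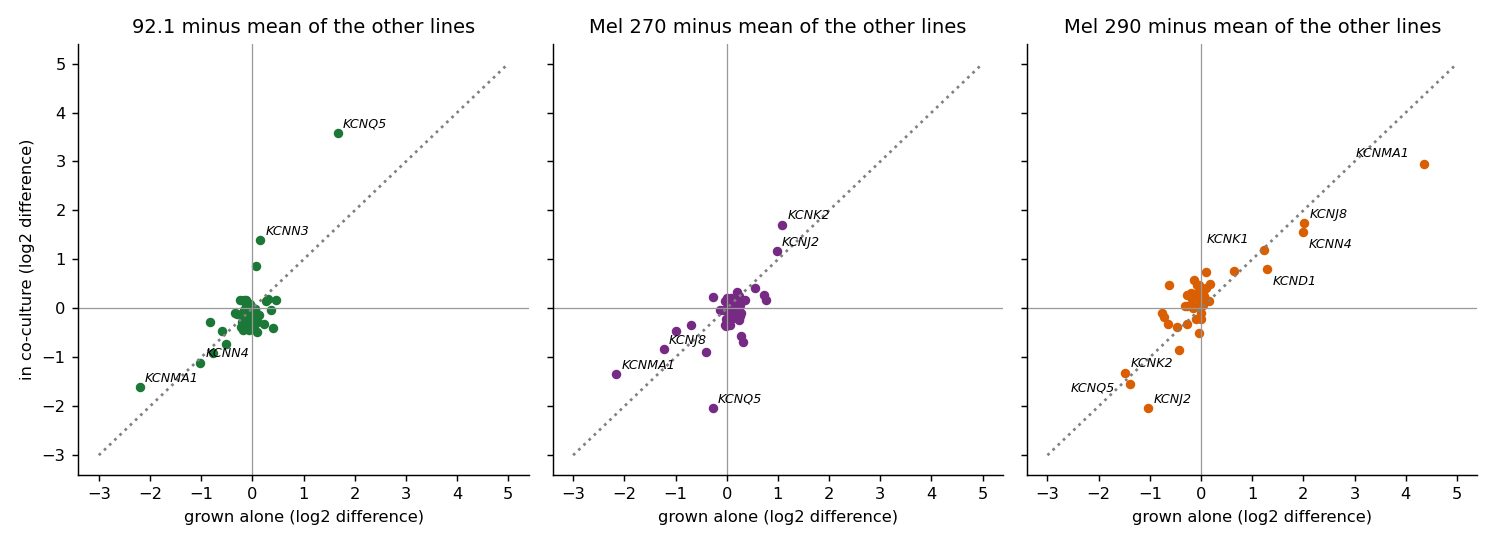
For each of the 53 KCN genes at or above the filter, the log2 signal of a line minus the mean of the other lines, grown alone (horizontal axis) and in co-culture (vertical axis), for 92.1, Mel 270 and Mel 290 from left to right. Points on the dotted line have the same difference in both cultures. KCNMA1 lies far to the right for Mel 290 (4.36 alone, 2.95 in co-culture), and KCNQ5 lies above the dotted line for 92.1 (1.66 alone, 3.58 in co-culture).

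Other genes of potassium transport were taken from 3 lists, whose counts stand beside the shares over all tested genes, which were 0.413% higher and 0.0362% lower at the adjusted threshold and 7.02% higher and 13.0% lower at an unadjusted p under 0.05. Of 16 channel partners without a KCN symbol 12 were tested, and 0 were called in either direction in limma, with 0 at an unadjusted p under 0.05 (median change 0.036). One of them, DPP10, a partner of A-type channels named after its values were seen, had a log2 signal of 8.54 in 92.1, 8.69 in Mel 270 and 4.05 in Mel 290 grown alone, and of 8.02, 8.27 and 4.34 in co-culture. Of 22 genes of the sodium-potassium pump and cation-chloride cotransport 12 were tested and 0 were called (median 0.015), with 1 higher and 1 lower at an unadjusted p under 0.05. SLC12A7, a potassium-chloride cotransporter, differed by 0.97, 1.01 and 1.19 in 92.1, Mel 270 and Mel 290 (limma adjusted p = 0.0616). Of the pump subunits, ATP1B1 differed by 1.24 and ATP1B3 by -1.24 in Mel 270. Of 18 genes that supply calcium to calcium-gated channels 13 were tested and 0 were called in limma, with 0 at an unadjusted p under 0.05 (median 0.11). Among these the calcium release channel genes ITPR2 (1.72) and ITPR3 (2.11) were at least 2-fold higher in Mel 270 and ITPR1 (1.17) in Mel 290.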

How the data were processed

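Total RNA of 6 cultures was hybridised to 1-colour Affymetrix arrays. The deposited values are log2 signals, as their range from 1.49 to 13.9 shows, made with Affymetrix Expression Console 1.2.0.20 per the submitters' processing notes. How background was corrected and arrays were normalized is not given in the sources used here. Array medians lay between 6.63 and 6.69, so values were not normalized again. Precision is limited by the number of arrays.

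Genes came from the array annotation (19460 probe sets with 1 symbol), with symbols updated through RefSeq (GRCh38.p14). The highest-mean probe set stood for a gene, and a mean at or above the 25th percentile (5.80) was required. Co-culture minus alone was fitted on all 13808 genes with limma 3.58.1 in R 4.3.3 (lmFit, eBayes), cell line as a block, with Benjamini-Hochberg adjustment. The lines pair the arrays: deviations from the group means correlated at 0.741 to 0.832 within a line. The fit had 2 residual degrees of freedom and a prior of 3.10. An exact permutation test of 3 pairs could not go below p = 0.25. Line contrasts came from the same fit. Named were members called in any fit, those 2-fold apart in a line, the 5 largest differences for each pair of lines alone, the next 5 by adjusted p, and below the filter those 4-fold apart in a line; the 2-fold ones there, KCNA3, KCNC1, KCNS2, ABCC9 and family relatives were named after their values were seen. Members and lists were chosen with earlier results of these data known. Alternatives were the filter, cyclic loess, raised low values, averaged probe sets, a variance trend, no block and each line left out. Markers of epithelium, neurons and glia had 0 calls in co-culture.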

Additional observations from a re-analysis of the deposited data

Results flagged for a closer look

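Some genes moved in opposite directions in different lines and by at least 2-fold in 1 of them, with 1 array per line and condition, so these differences were not tested. The change of KCNQ5 in co-culture lay 2.46 log2 units higher in 92.1 (0.15) than in Mel 270 (-2.31). That of KCNN3 lay 1.40 higher in 92.1 (1.28) than in Mel 270 (-0.12). Of the calcium release channel genes, the change of ITPR3 lay 2.66 higher in Mel 270 (2.11) than in Mel 290 (-0.55), and that of ITPR1 lay 1.62 higher in Mel 290 (1.17) than in Mel 270 (-0.45). Groups of 3 arrays are too small for a test of single outlying arrays.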

How the results depend on the processing

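The count of potassium channel genes called lower in co-culture, 2 in the fit reported, was 1 without a filter, 1 with a filter at the 50th percentile, 0 after cyclic loess, 0 with low values raised to the filter level, 0 without the cell line as replicate block, and 0 to 1 when a line was left out. Over all genes the calls lower were 5 in the fit reported, and 4, 9, 1, 4 and 0 under these settings in the same order, and 2 to 9 with a line left out. The count of channel genes stayed at 2 with averaged probe sets and with a variance trend. The count called higher was 0 under each of these settings. With the filter at the 50th percentile, which leaves 11 members, the members at least 2-fold higher in co-culture were 0 in 92.1 and 0 in Mel 270, those lower in Mel 290 were 2, those 2-fold apart alone were 2 between 92.1 and Mel 290 and 1 between Mel 270 and Mel 290, and each line contrast called 1. Without a filter, 3 members were 2-fold apart between 92.1 and Mel 270 alone. When a line was left out, the small change of KCND1 lay between -0.15 and 0.13 and that of KCNK1 between -0.093 and 0.25, so both changed sign. The cause of these shifts was not tested, except that a higher filter tests fewer members and a line left out leaves fewer arrays. Signals near or below 5.80 are close to background, which limits KCNH1, KCNJ2 in Mel 290 and KCNMA1 in 92.1 and Mel 270.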
